A study of Mus musculus with 6 samples.

Results

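The insulin-like growth factor (IGF) pathway was followed here through 10 genes listed by symbol: the ligands Igf1 and Igf2, the receptors Igf1r, Igf2r and Insr, the adaptors Irs1 and Irs2, and the mRNA-binding proteins Igf2bp1, Igf2bp2 and Igf2bp3. Members were found as probes of the deposited table that carry 1 of these symbols, which gave 10 probes for 9 genes, of 26423 probes and 19084 gene symbols in all. Igf2bp2 had no probe under its symbol and is not analysed here. All 9 genes with a probe passed the filter on dim probes, beside 15459 genes tested in all.

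Cells of the gonad of ICR mice were profiled on 6 Cy5 arrays, 2 for each of 3 groups. PGC colony arrays held RNA of colonies that gonadal cells of 67 embryos at E11.5 had formed on laminin (200 ng/cm2) over 7 days in 5% O2. GSC colony arrays held RNA of colonies that testicular cells of 80 mice, newborn to P2, had formed in the same way. CD49f+ sorted arrays held RNA of uncultured testicular cells of 100 mice of that age, taken by magnetic sorting for CD49f, an integrin subunit, and labelled as physiological hypoxia with no oxygen value. The culture medium of both colony groups contained insulin with transferrin and selenium, and epidermal growth factor at 10 ng/ml, whereas the sorted cells had no culture. The labels call the cells primordial germ cells (PGC) and glandular stem cells (GSC), give no sex for the embryos, and leave unsaid if a group's arrays are separate preparations of the pooled animals. The p-values therefore reflect array-to-array spread alone, possibly technical. Between colonies and sorted cells, culture, oxygen, insulin, epidermal growth factor, laminin, selection by CD49f and, for PGC colonies, stage cannot be told apart. Stage, tissue of origin and any difference in sex cannot be told apart between PGC and GSC colonies.

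Levels are log2 intensities after normalization between arrays, and every difference is on that log2 scale. A gene was called where the limma adjusted p was under 0.05 over all genes tested. After normalization the arrays of PGC colonies and sorted cells did not overlap for 71.1% of all genes. That share was 75.6% for GSC colonies and sorted cells and 56.7% for PGC and GSC colonies. Non-overlap was thus common, and 9, 9 and 7 of the 9 members showed it in the same order. The deposited intensities had medians of 541 to 587 on PGC colony arrays, 558 to 606 on GSC colony arrays and 393 to 406 on sorted arrays, so scaling matters for small differences. Without normalization the median gene was 0.42 higher in PGC colonies and 0.47 higher in GSC colonies than in sorted cells.

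Markers of several cell types differed between the groups. The summed linear level of 9 of 10 fibroblast markers with a probe was 302000 to 313000 on PGC colony arrays, 554000 to 566000 on GSC colony arrays and 22900 to 25700 on sorted arrays. That of 9 of 11 macrophage markers was 7340 to 7660, 2790 to 3090 and 107000 to 112000 on the arrays in the same order of groups, and that of 10 of 10 Sertoli markers was 229000 to 248000, 316000 to 317000 and 779000 to 840000. The 12 germ cell markers summed to 4420 to 4630 in PGC colonies, 7480 to 7770 in GSC colonies and 7170 to 7310 in sorted cells. Endothelial markers (8 of 8) summed to 8020 to 8470, 18600 to 18700 and 49600 to 52300 in PGC colonies, GSC colonies and sorted cells, Leydig markers (4 of 6) to 16400 to 17000, 19400 to 20000 and 55400 to 58800, and smooth muscle markers (5 of 6) to 37000 to 38800, 75600 to 76400 and 5310 to 5400. These sums are carried by the brightest markers, and some markers went the other way. Against sorted cells, 3 smooth muscle markers were called higher and 1 lower (Myh11, -0.74) in PGC colonies, beside 22.8% and 23.2% of all genes. In GSC colonies 1 endothelial marker was called higher (Emcn, 1.26) and 7 lower. Leydig markers there were 1 higher and 2 lower, and germ cell markers 4 higher and 2 lower, beside 22.5% and 24.5% of all genes. In PGC colonies 0 of the 9 tested germ cell markers were called higher and 5 lower against sorted cells. The counts against GSC colonies were also 0 and 5, beside 7.08% and 7.98% of all genes. Of the germ cell markers, Dppa3, Sall4 and Tfap2c lay under the 30th percentile of every array. Dazl did so on both PGC colony arrays, and Sohlh1 on both PGC colony and both sorted arrays. The part of these cell types in the IGF results was not tested, and in such bulk RNA fewer cells of a type and less RNA per cell cannot be told apart.

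IGF-I and IGF-II are small secreted hormones related to insulin. Both signal through the tyrosine kinase encoded by Igf1r, and IGF-II also binds the insulin receptor encoded by Insr. The activated receptors phosphorylate the docking proteins IRS1 and IRS2, which recruit phosphoinositide 3-kinase (PI3K) and so switch on AKT. Igf2r encodes the mannose 6-phosphate receptor, which takes IGF-II into lysosomes to be degraded. Igf2 and Igf2r are imprinted in the mouse, Igf2 being active on the paternal copy and Igf2r on the maternal copy. The Igf2bp proteins bind mRNAs, Igf2 mRNA among them, and are made mainly in embryonic tissues. In the gonad, insulin and IGF receptors are needed for testis formation in the mouse, and IGF-I promotes the growth of germline stem cells in culture.

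Sequences before the annotated start sites are shown for the genes with the largest differences. Of the 10 listed symbols, 8 had start-site windows in the RefSeq table used (build GRCm38.p6), 11 windows in all. Igf2 is shown first because it rose the most in PGC colonies and is annotated with 4 start sites. The array has a single Igf2 probe and does not say which start is used. Each line runs 5′ to 3′ over 70 bases before the start and the first 30 bases of the transcript.
Igf2 (chr7:142666787-142666886, minus strand): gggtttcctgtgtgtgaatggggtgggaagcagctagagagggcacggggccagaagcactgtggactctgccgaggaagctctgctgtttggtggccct
Igf2 (chr7:142661242-142661341, minus strand): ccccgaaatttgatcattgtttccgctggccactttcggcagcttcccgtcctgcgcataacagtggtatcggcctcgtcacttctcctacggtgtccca
Igf2 (chr7:142658775-142658874, minus strand): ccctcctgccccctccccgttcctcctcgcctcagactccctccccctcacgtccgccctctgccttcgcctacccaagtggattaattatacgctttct
Igf2 (chr7:142657467-142657566, minus strand): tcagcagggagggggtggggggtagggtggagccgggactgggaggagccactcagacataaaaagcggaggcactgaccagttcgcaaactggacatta

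Irs2, Irs1 and Igf2r are shown because they are the members with a window that kept their calls in both comparisons with sorted cells in each of the 17 other settings tried. Each line runs 5′ to 3′ over 250 bases before the start and the first 30 bases of the transcript. Capitals mark CACGTG, the E-box that basic helix-loop-helix factors bind, and TGTTTTG with its reverse complement CAAAACA, a form of the insulin response sequence that FOXO factors bind. These motifs were chosen after the windows had been read.
Irs2 (chr8:11008900-11009179, minus strand): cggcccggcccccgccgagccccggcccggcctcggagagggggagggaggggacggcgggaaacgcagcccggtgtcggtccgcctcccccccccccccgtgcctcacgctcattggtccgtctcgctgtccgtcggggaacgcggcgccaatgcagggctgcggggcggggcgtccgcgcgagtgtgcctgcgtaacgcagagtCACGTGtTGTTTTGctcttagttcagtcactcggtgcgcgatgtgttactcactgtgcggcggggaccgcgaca
Irs1 (chr1:82291410-82291689, minus strand): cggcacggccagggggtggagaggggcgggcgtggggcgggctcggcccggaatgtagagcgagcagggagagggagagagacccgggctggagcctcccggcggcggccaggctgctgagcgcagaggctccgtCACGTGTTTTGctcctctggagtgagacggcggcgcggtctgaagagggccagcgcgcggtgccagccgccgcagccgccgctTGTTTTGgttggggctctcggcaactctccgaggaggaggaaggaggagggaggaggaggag
Igf2r (chr17:12769677-12769956, minus strand): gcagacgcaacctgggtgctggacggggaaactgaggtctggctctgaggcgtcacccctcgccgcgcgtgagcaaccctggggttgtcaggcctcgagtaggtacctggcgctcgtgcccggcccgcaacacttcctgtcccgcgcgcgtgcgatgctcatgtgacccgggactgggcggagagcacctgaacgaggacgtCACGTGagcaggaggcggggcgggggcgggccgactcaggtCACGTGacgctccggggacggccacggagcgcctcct

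The Irs2 window held CACGTG at position -44 from the start and TGTTTTG at -37, with 1 base between them. The Irs1 window held CACGTG at -115 and TGTTTTG at -111, overlapping by 2 letters, and a further TGTTTTG at -32. The Igf2r window held CACGTG at -48 and at -7. Over all 32851 start-site windows of the same 280 bases, searched on both strands, CACGTG was present in 6.79%, TGTTTTG in 5.97% and both in 0.35%. Among the members' 11 windows, CACGTG was found in 4, for 4 of 8 genes (Irs1, Irs2, Igf2r and Igf2bp3). TGTTTTG was found in 2 of the 11, for 2 genes (Irs1 and Irs2). The windows of Igf1, Igf1r, Igf2 and Igf2bp2 held neither. The shorter ACGTG, the core of hypoxia response elements and part of CACGTG, was found in 6 of the 11 windows, for 6 of 8 genes. Those include every window with CACGTG. It was present in 18.5% of all windows. Because the motifs were chosen after these windows had been read, the shares over all windows give no test of enrichment. A match gives letters only and does not show that a factor binds there.

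PGC colonies were compared with sorted cells, which sets cultured colonies of embryonic origin beside fresh postnatal testis cells. Of the 9 measured members, 4 were called higher (Igf2, Igf2r, Irs1 and Igf2bp1) and 2 lower (Igf1r and Irs2), and 3 did not pass. Over all genes tested, 22.8% were called higher and 23.2% lower. Without normalization between arrays 6 members were called higher and 1 lower, Igf1 and Igf2bp3 joining the higher calls and Igf1r leaving the lower. The median absolute difference was 1.12 over the members and 0.39 over all genes.

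GSC colonies were compared with sorted cells, which sets colony culture of postnatal testis cells beside freshly sorted cells of equal age. All 9 measured members passed, 4 higher (Igf1, Igf2r, Irs1 and Igf2bp1) and 5 lower (Igf2, Igf1r, Insr, Irs2 and Igf2bp3), against 22.5% of all genes called higher and 24.5% lower. The median absolute difference was 0.70 over the members and 0.42 over all genes. Only Igf2r, Irs1, Irs2 and Igf2bp1 kept their call in each of the 17 other settings tried, and of the 5 lower calls 1 was left without normalization between arrays and 2 with median centring, while the 4 higher calls stood in both. These comparisons share the sorted arrays, so they are given side by side and are not independent of each other.

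PGC colonies were then set against GSC colonies, both grown in the same medium but from animals of different stage. Here 3 members were called higher (Igf2, Igf2bp1 and Igf2bp3), 0 lower, and 6 did not pass, against 7.08% of all genes higher and 7.98% lower. These are limma calls; at an unadjusted p under 0.05 Igf1 was also lower in PGC colonies, and Irs1 and Igf2r higher. With median centring Igf1 was called lower as well, which made 3 higher and 1 lower. The median absolute difference was 0.40 over the members and 0.22 over all genes.

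**Figure D1:**
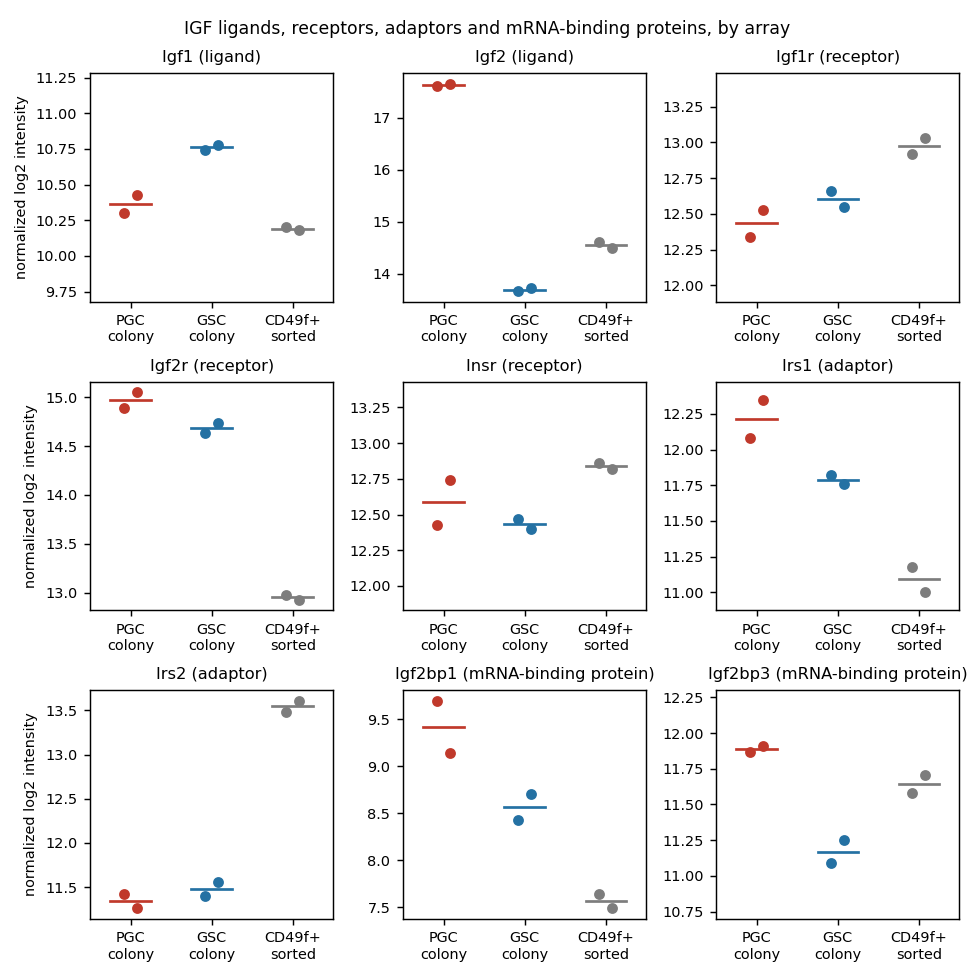
Normalized log2 intensity of the 9 measured genes (vertical axes, each with its own range) on the 2 arrays of each group (points) with the group mean (line). Igf2 stood highest in PGC colonies, at 17.64, Igf2r was near 15 in both kinds of colony and at 12.96 in sorted cells, and Irs2 was highest in sorted cells, at 13.54.

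**Figure D2:**
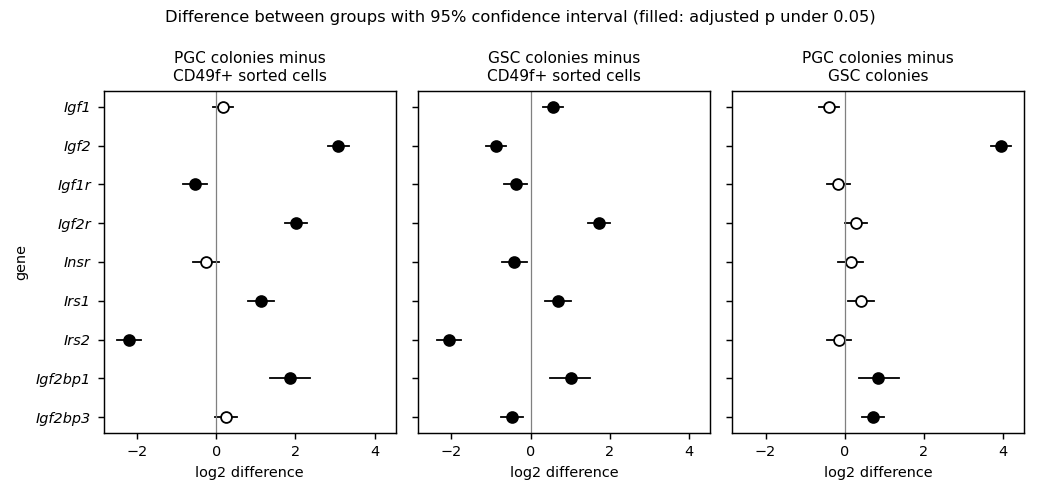
Log2 difference between groups (horizontal axis) for each gene, as points with 95% confidence intervals from the fit over all genes; filled points passed at an adjusted p under 0.05. Igf2 lies furthest to the right in both comparisons of PGC colonies, and Irs2 furthest to the left in both comparisons with sorted cells.

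The ligand Igf2 was the member with the largest difference in PGC colonies. Its deposited intensity was 222243 and 226640 on PGC colony arrays, 15330 and 16392 on GSC colony arrays, and 18242 and 17438 on sorted arrays. After normalization PGC colonies stood at 17.64 ± 0.04, GSC colonies at 13.69 ± 0.04 and sorted cells at 14.56 ± 0.08 (SD, n = 2 each). Both PGC colony arrays stood far above the other 4, and no groups overlapped. Igf2 rose by 3.08 ± 0.11 (SE) in PGC colonies against sorted cells, an 8.46-fold difference (limma adjusted p = 6.59e-06). Against GSC colonies it rose by 3.95 ± 0.11, or 15.4-fold (limma adjusted p = 1.93e-05), and 0.168% of all genes tested differed by more than this in either direction. In GSC colonies Igf2 was lower than in sorted cells, by -0.87 ± 0.11 (limma adjusted p = 0.000864). That fall did not pass without normalization between arrays, where it was -0.17 (adjusted p = 0.21) while the median gene was 0.47 higher. The order was therefore PGC colonies above sorted cells above GSC colonies. The size and the call of the lower step depend on the scaling, while its direction was kept in the 17 other settings.

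Markers of skeletal muscle, a tissue in which Igf2 is active during development, had their highest sum in the same group. The summed level of the 8 markers, Acta1 among them, was 12700 to 13900 in PGC colonies, 1980 to 2440 in GSC colonies and 2020 to 2310 in sorted cells. Of the 6 tested, 4 were called higher and 0 lower in PGC colonies than in sorted cells, beside 22.8% and 23.2% of all genes. Myod1 (0.37) and Chrna1 (0.38) were not called there, and Myf5 and Pax7 lay under the 30th percentile of every array. The part of these markers in the Igf2 level was not tested. By profile over the 6 arrays, each centred on its own mean, the gene nearest to Igf2 was Acta1, the skeletal muscle actin, at a root mean square distance of 0.18. Mmp9, a matrix metalloproteinase, followed at 0.38 and Myl1, a muscle myosin light chain, at 0.40. Acta1 lay under the 30th percentile on both GSC colony and both sorted arrays, so its likeness to Igf2 there rests on values at background. Mmp9 differed by 3.11 and Myl1 by 3.56 between PGC and GSC colonies.

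The ligand Igf1 differed little between groups. On its brighter probe (PH_mM_0001105) the level was 10.30 and 10.43 on PGC colony arrays, 10.74 and 10.78 on GSC colony arrays, and 10.20 and 10.18 on sorted arrays. The GSC colony arrays were the highest and the sorted arrays the lowest, with no overlap. Igf1 rose by 0.57 ± 0.11 in GSC colonies against sorted cells (limma adjusted p = 0.00535). In PGC colonies the difference from sorted cells was 0.17 ± 0.11 (adjusted p = 0.242), with a 95% interval of -0.09 to 0.43, and that from GSC colonies was -0.40 ± 0.11 (adjusted p = 0.0558). The dimmer Igf1 probe (PH_mM_0012500) ran the other way, at 7.99 and 8.04 in PGC colonies, 7.90 and 8.25 in GSC colonies, and 8.39 and 8.46 in sorted cells. Fitted on its own it differed from sorted cells by -0.41 in PGC colonies and by -0.35 in GSC colonies (limma adjusted p = 0.0562 and 0.0888), and with the mean of both probes the GSC colony rise became 0.11 (adjusted p = 0.471). The deposited intensity of the dimmer probe was 250 and 223 in PGC colonies, 245 and 259 in GSC colonies, and 216 and 233 in sorted cells. There GSC colonies lay above sorted cells, as on the brighter probe, and PGC colonies and sorted cells overlapped, so the opposite direction of the dimmer probe appeared with normalization. The genes with the most similar profile to the brighter probe were Cdk20, Atg7 and Tradd, each at a distance of 0.05 over the 6 arrays.

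Among the receptors, Igf2r stood out. Its deposited intensity was 32970 and 37518 on PGC colony arrays, 30805 and 34018 on GSC colony arrays, and 6018 and 6160 on sorted arrays. Every colony array exceeded every sorted array. Igf2r rose by 2.01 ± 0.11 in PGC colonies (4.04-fold, limma adjusted p = 3.45e-05) and by 1.73 ± 0.11 in GSC colonies (3.31-fold, limma adjusted p = 5.64e-05) against sorted cells. PGC and GSC colonies differed by 0.29 ± 0.11 in Igf2r, with a 95% interval of 0.01 to 0.56 and an adjusted p of 0.15. Of the 3 receptor genes, Igf2r alone passed 2-fold.

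Igf1r, the receptor that carries the growth signal of both ligands, was lower in colonies by a small amount. Its normalized level was 12.34 and 12.53 on PGC colony arrays, 12.66 and 12.55 on GSC colony arrays, and 12.92 and 13.03 on sorted arrays. The sorted arrays were the highest. The deposited intensity of Igf1r was 5661 and 6521 on PGC colony arrays, 7364 and 7069 on GSC colony arrays, and 5760 and 6557 on sorted arrays. On that scale PGC colonies and sorted cells overlapped and both GSC colony arrays lay above the other 4, opposite to their lower call after normalization. The difference from sorted cells was -0.54 ± 0.12 in PGC colonies (limma adjusted p = 0.0118) and -0.37 ± 0.12 in GSC colonies (limma adjusted p = 0.0463). Without normalization these were -0.02 and 0.22, below a median gene at 0.42 and 0.47, and neither passed. The PGC colony call was also lost without CD49f+ sorted replicate 2 (-0.48, adjusted p = 0.0815), and the GSC colony call without any 1 of the 4 arrays compared (-0.43 to -0.32). PGC and GSC colonies differed by -0.17 ± 0.12 (adjusted p = 0.408), with an interval of -0.46 to 0.13.

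Insr, which encodes the insulin receptor, followed Igf1r. Its level was 12.43 and 12.74 on PGC colony arrays, 12.47 and 12.40 on GSC colony arrays, and 12.86 and 12.82 on sorted arrays. The sorted arrays were the highest, and the colony groups overlapped each other. Insr fell by 0.41 ± 0.13 in GSC colonies against sorted cells (log2 difference -0.41, limma adjusted p = 0.0463). The difference in PGC colonies was -0.26 ± 0.13 (adjusted p = 0.171, 95% interval -0.58 to 0.07), and without PGC colony replicate 2 it was -0.41 and passed (adjusted p = 0.0345). The GSC colony call was lost without any 1 of the 4 arrays compared (-0.44 to -0.38), and without normalization the Insr differences were 0.25 in PGC and 0.18 in GSC colonies. Between PGC and GSC colonies the difference was 0.15 ± 0.13, with an interval of -0.17 to 0.47.

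The adaptors moved in opposite directions. Irs1 had 4736 and 5824 units of deposited intensity on PGC colony arrays, 4057 and 4010 on GSC colony arrays, and 1731 and 1588 on sorted arrays. All colony arrays exceeded both sorted arrays. Irs1 rose by 1.12 ± 0.14 in PGC colonies (2.18-fold, limma adjusted p = 0.000849) and by 0.70 ± 0.14 in GSC colonies (1.63-fold, limma adjusted p = 0.00645). The colonies themselves differed by 0.42 ± 0.14 (adjusted p = 0.095), with an interval of 0.09 to 0.75.

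Irs2 had 3021 and 2677 units on PGC colony arrays, 2979 and 3488 on GSC colony arrays, and 8378 and 9533 on sorted arrays. The sorted arrays stood apart at the top, and the colony groups overlapped. Irs2 was lower than in sorted cells by 4.6-fold in PGC colonies (log2 difference -2.20 ± 0.13, limma adjusted p = 3.63e-05) and by 4.17-fold in GSC colonies (-2.06 ± 0.13, limma adjusted p = 4.17e-05). PGC and GSC colonies differed by -0.14 ± 0.13 in Irs2 (adjusted p = 0.511), with a 95% interval of -0.45 to 0.17. The start-site window of Irs2 shown above holds TGTTTTG 1 base after the E-box, and that of Irs1 holds both motifs as well. The part of these motifs in the level of either gene was not tested.

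Of the mRNA-binding proteins, Igf2bp1 was called higher in PGC colonies than in both other groups. Igf2bp1 had a deposited intensity of 885 and 547 in PGC colonies, 361 and 391 in GSC colonies, and 113 and 91 in sorted cells. The groups formed 3 separate steps, though the PGC colony arrays lay apart from each other, at log2 levels of 9.70 and 9.14. Both sorted arrays fell short of the 30th percentile of their probes, so Igf2bp1 passed the filter through the colony arrays alone. The rise against sorted cells is therefore given as at least 3.03-fold in PGC colonies and at least 1.68-fold in GSC colonies. The differences without that bound had a limma adjusted p = 0.000585 and 0.00821, and both calls also stood with no filter. Between PGC and GSC colonies Igf2bp1 rose by 0.85 ± 0.21 (limma adjusted p = 0.0425). That call was lost in 7 of the 17 other settings, with values of 0.57 without PGC colony replicate 1, 0.70 without GSC colony replicate 1, and 0.86 without either of the CD49f+ sorted arrays.

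Igf2bp3 had levels of 11.87 and 11.91 on PGC colony arrays, 11.09 and 11.25 on GSC colony arrays, and 11.58 and 11.71 on sorted arrays. The GSC colony arrays were the lowest and the PGC colony arrays the highest, with no overlap. Igf2bp3 rose by 0.72 ± 0.12 in PGC colonies against GSC colonies (1.65-fold, limma adjusted p = 0.00965), a call lost without GSC colony replicate 1 (0.64, adjusted p = 0.0537). In GSC colonies it was lower than in sorted cells, with a difference of -0.47 ± 0.12 (limma adjusted p = 0.0156), but this was 0.06 without normalization and was lost without GSC colony replicate 1 (-0.40) or CD49f+ sorted replicate 2 (-0.41). PGC colonies and sorted cells differed by 0.25 ± 0.12 in Igf2bp3 (adjusted p = 0.131), with an interval of -0.03 to 0.53.

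Igf2 lies in an imprinted cluster with H19, a non-coding RNA made from the maternal copy, and a list of 16 imprinted growth genes besides Igf2 was followed. Of the 15 tested, 8 were higher and 3 lower in PGC colonies than in sorted cells, with a median difference of 0.93, beside 22.8% higher, 23.2% lower and a median of -0.02 over all genes. In GSC colonies 7 were higher and 4 lower than in sorted cells, with a median of 0.26, beside 22.5% higher and 24.5% lower over all genes. Between PGC and GSC colonies 6 were higher and 2 lower, with a median of -0.13, beside 7.08% higher and 7.98% lower over all genes. Peg10 was not tested. Dcn of this list is also 1 of the fibroblast markers above, and the arrays do not tell the parental copies apart.

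H19 had levels of 16.88 and 17.02 on PGC colony arrays, 14.41 and 14.28 on GSC colony arrays, and 13.04 and 13.19 on sorted arrays, in 3 separate steps. It rose by 3.83 ± 0.12 in PGC colonies and by 1.23 ± 0.12 in GSC colonies against sorted cells (limma adjusted p = 5.51e-06 and 0.000317), and by 2.61 ± 0.12 in PGC against GSC colonies (limma adjusted p = 8.41e-05). GSC colonies thus had more H19 and less Igf2 than sorted cells on this scale. Dlk1, which encodes a membrane protein of the Notch ligand family, had the largest rise of the list in PGC colonies against sorted cells, 4.58 ± 0.14, followed by H19 and by the matrix proteoglycan gene Dcn at 2.96 ± 0.14. In GSC colonies the largest rises were those of Dcn at 3.91 ± 0.14, Grb10 at 2.59 ± 0.14 and Cdkn1c, a cell cycle inhibitor gene, at 2.19 ± 0.10. Mest, a paternally expressed gene of mesoderm, differed by 2.23 ± 0.12 in PGC colonies and by -3.11 ± 0.12 in GSC colonies from sorted cells, and rose by 5.34 ± 0.12 between PGC and GSC colonies (limma adjusted p = 1.11e-05).

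The lower genes of the imprinted list were largely shared in name. Gatm, an enzyme gene of creatine synthesis, Gnas, which encodes a G protein subunit, and Nnat, a neuronal membrane protein gene, differed from sorted cells by -2.37 ± 0.13, -1.67 ± 0.12 and -1.51 ± 0.12 in PGC colonies. In GSC colonies Nnat, Gnas and Mest were the furthest below sorted cells, Nnat at -3.59 ± 0.12 and Gnas at -3.46 ± 0.12. Against GSC colonies, Mest, H19 and Dlk1 (2.50 ± 0.14) rose the most in PGC colonies, while Dcn at -0.95 ± 0.14 and Cdkn1c at -0.69 ± 0.10 were lower. Plagl1, a transcription factor gene of the imprinted network known to activate Igf2 and H19 in the mouse, differed by -0.39 in PGC and -0.02 in GSC colonies from sorted cells and was not called. Without normalization Plagl1 was at 0.20 in PGC and 0.76 in GSC colonies, beside a median gene at 0.42 and 0.47. The GSC colony difference then passed (limma adjusted p = 0.00224).

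**Figure D3:**
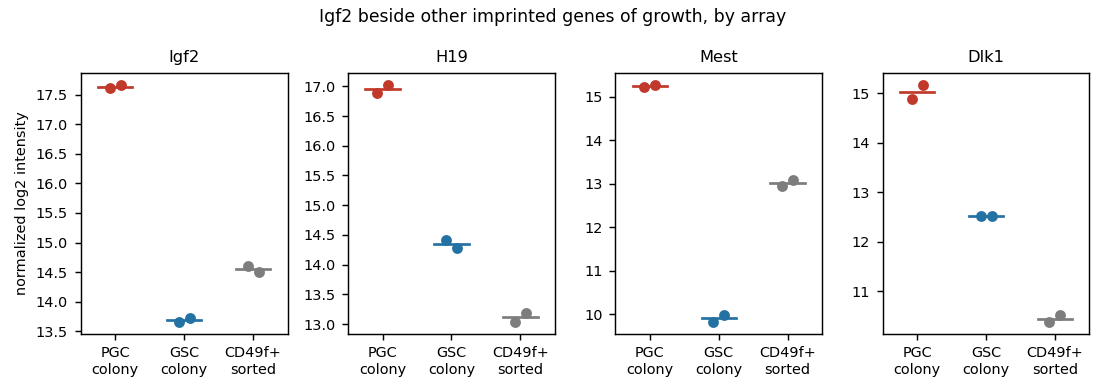
Normalized log2 intensity (vertical axes, each with its own range) of Igf2, H19, Mest and Dlk1 on the 2 arrays of each group (points) with the group mean (line). All 4 genes were highest in PGC colonies; Igf2 and Mest were lowest in GSC colonies, and H19 and Dlk1 in sorted cells.

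Downstream of the receptors, a list of 41 insulin and PI3K signalling genes was read, of which 36 had a probe and 33 were tested. Against sorted cells 8 were higher and 5 lower in PGC colonies, and 9 were higher and 8 lower in GSC colonies. Over all genes, 46% and 47.1% were called in either direction. The median differences of the list, -0.10 in PGC and -0.01 in GSC colonies, lay near those of all genes, -0.02 and -0.01. Without normalization between arrays the counts were 16 higher and 3 lower in PGC colonies and 18 higher and 3 lower in GSC colonies, and with median centring 10 higher and 5 lower in GSC colonies. Between PGC and GSC colonies limma called 0 higher and 2 lower, beside 7.08% and 7.98% of all genes, and at an unadjusted p under 0.05 the counts were 4 higher and 4 lower.

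Grb10, an imprinted adaptor that inhibits the insulin and IGF-I receptors, had the largest rise in both kinds of colony, by 2.61 ± 0.14 in PGC and 2.59 ± 0.14 in GSC colonies (limma adjusted p = 2.72e-05 and 2.41e-05). The related adaptor gene Grb14 was the lowest of the called genes in both, with differences of -2.28 ± 0.11 and -1.56 ± 0.11 in the same order (limma adjusted p = 1.94e-05 and 7.3e-05). Shc1, an adaptor that links receptors to RAS, rose by 2.12 ± 0.12 in PGC and 2.17 ± 0.12 in GSC colonies. In PGC colonies Eif4ebp1, which encodes a translation repressor controlled by mTOR, rose by 1.40 ± 0.11. In GSC colonies Socs3, a feedback inhibitor of cytokine and insulin signalling, rose by 1.75 ± 0.18 (limma adjusted p = 0.000429), against 0.10 in PGC colonies, and the direct difference of -1.65 ± 0.18 between PGC and GSC colonies passed (limma adjusted p = 0.00238).

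The subunit genes of PI3K differed in their calls. The regulatory subunit genes Pik3r1, Pik3r2 and Pik3r3 rose by 1.39, 0.94 and 0.66 in PGC colonies and by 1.54, 1.23 and 0.74 in GSC colonies against sorted cells. Of the catalytic subunits, Pik3ca rose by 0.41 and 0.39, whereas Pik3cb differed by -0.77 and -0.54 and Pik3cd by -1.68 and -1.14. Without normalization Pik3cb was at -0.34 (adjusted p = 0.0675) and -0.09 (adjusted p = 0.561) and was not called, while the Pik3cd calls stood. Pik3cd is the subunit typical of leukocytes. The 9 tested macrophage markers were all called lower in both kinds of colony than in sorted cells, beside 23.2% of all genes in PGC and 24.5% in GSC colonies. Between PGC and GSC colonies 8 of them were called higher and 0 lower, beside 7.08% and 7.98% of all genes. Of these markers, Tyrobp, C1qb, Adgre1 and Cx3cr1 lay under the 30th percentile on both GSC colony arrays. Pik3cd differed by -0.53 between PGC and GSC colonies (limma adjusted p = 0.0615). The part of leukocytes in the Pik3cd level was not tested. Rictor, a subunit of mTOR complex 2, was lower as well, by -0.91 ± 0.16 in PGC and -1.07 ± 0.16 in GSC colonies. Akt1, the kinase downstream of PI3K, rose by 0.90 ± 0.12 and 0.98 ± 0.12. The other member called lower between PGC and GSC colonies was Grb14, at -0.72 ± 0.11 (limma adjusted p = 0.00799).

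**Figure D4:**
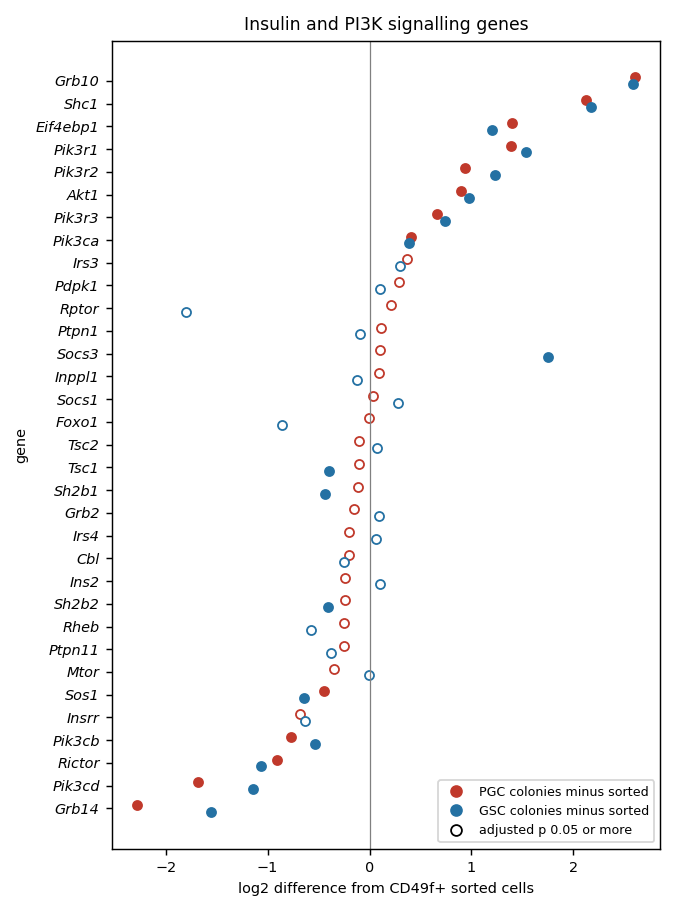
Log2 difference from CD49f+ sorted cells (horizontal axis) of the 33 tested insulin and PI3K signalling genes (vertical axis, ordered by the PGC colony difference), for PGC colonies (red) and GSC colonies (blue); filled points passed at an adjusted p under 0.05. Grb10 and Shc1 lie at the top and Grb14 and Pik3cd at the bottom in PGC colonies, and Socs3 is filled for GSC colonies only.

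The Igf2bp genes belong to a group of embryonic RNA-binding and growth genes that let-7 microRNAs repress, together with Lin28b and Hmga2. A list of 16 genes around this LIN28 and let-7 axis had 12 tested, and Lin28a, Hmga1, Plag1 and Drosha were not tested. It also held genes of microRNA processing, such as Dicer1 and Dgcr8, and other RNA-binding protein genes, such as Ybx1 and Syncrip. Its counts are therefore not counts of let-7 targets. Against sorted cells 2 were higher and 3 lower in PGC colonies, and 2 were higher and 2 lower in GSC colonies, where 46% and 47.1% of all genes were called in either direction. Without normalization 6 were higher and 0 lower in each. With median centring 3 were higher and 1 lower in PGC colonies. Between PGC and GSC colonies limma called 0 of the 12, beside 15.1% of all genes, with 2 higher and 0 lower at an unadjusted p under 0.05.

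Hmga2, a chromatin protein gene of embryonic growth, accounted for the largest change of that list. Its level was 14.46 and 14.26 on PGC colony arrays, 14.52 and 14.38 on GSC colony arrays, and 9.70 and 9.62 on sorted arrays. It rose by 4.70 ± 0.12 in PGC colonies and by 4.79 ± 0.12 in GSC colonies (limma adjusted p = 4.02e-06 and 2.32e-06). Lin28b differed by -0.02 and -0.19 and was not called. Ybx1, a cold shock domain protein gene, rose by 0.36 ± 0.12 in PGC and 0.51 ± 0.12 in GSC colonies. Syncrip, an RNA-binding protein gene, differed by -0.77 ± 0.16 and -1.04 ± 0.16, and the helicase gene Dhx9 by -0.45 ± 0.13 and -0.84 ± 0.13. Ddx6, another helicase gene, was lower in PGC colonies, at -0.43 ± 0.11. None of these falls passed without normalization: Dhx9, Ddx6 and Syncrip were then at 0.12, 0.15 and -0.21 in PGC colonies, and Dhx9 and Syncrip at -0.16 and -0.41 in GSC colonies.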

How the data were processed

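Each array measured Cy5-labelled RNA of 1 sample, amplified from 1 µg of total RNA, per the labels. The deposited table holds linear probe intensity; values below 0 on 4 of 6 arrays show that the authors deposited signals with some background removed. How this was done, and the scanner and scaling, is not given in the sources used here. The array's genome build is not named either, so probes carry no positions. Probes were named through the platform's probe table (21876 probes with 1 symbol), and the Entrez identifiers of all 10 member probes matched a RefSeq symbol.

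Intensities were corrected with normexp (offset 50), put on the log2 scale and quantile normalized, since the deposited intensity differed between arrays. The brightest probe stood for a gene, and genes entered the fit if 2 or more arrays reached their own 30th percentile. All 6 arrays entered 1 fit in limma 3.58.1 (R 4.3.3; lmFit and eBayes, 3 group means, 3 residual degrees of freedom), tested on simulated data, with Benjamini-Hochberg adjusted p over 15459 genes. For a gene under that percentile on both arrays of 1 group, the fold is a lower bound against the percentile. The number of arrays limits the precision.

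Named genes are all members, up to 3 genes called with the largest rise and 3 with the largest fall in each list and comparison, the 3 genes nearest in profile to Igf1 and to Igf2, and Plagl1, Lin28b, Akt1 and the PI3K subunit genes where they fall outside that rule, chosen after their values were seen. The motifs were also chosen after the sequences were read. Members and lists were chosen with earlier results of these data known. Alternatives cover scaling, background, probes, filters, the fit, the replicate block and leaving out each array.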

Additional observations from a re-analysis of the deposited data

How the results depend on the processing

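Over 17 other settings, Igf2r, Irs1, Irs2 and Igf2bp1 kept their direction and call against sorted cells in both kinds of colony, and Igf2 did so in both comparisons of PGC colonies. The members called lower in GSC colonies against sorted cells numbered 5. They were 1 without between-array normalization, 2 under median centring, 3 with a normexp offset of 16, with a floor at 50, with no filter and with the replicate block, and 2 to 5 when each array was left out. In PGC colonies against sorted cells the 2 lower calls became 1 without normalization and 1 to 3 with an array left out. Between PGC and GSC colonies 1 member, Igf1, was called lower without normalization, with median centring and with the 50th percentile filter, against 0 otherwise, and 1 to 3 were called higher with an array left out; the genes called there numbered 2329, and 1445 to 2039 with an array left out. Signs turned without normalization for Igf1r (0.22), Igf2bp3 (0.061) and Insr (0.18) in GSC colonies and for Insr (0.25) in PGC colonies, all against sorted cells. They also turned for Igf1 in PGC colonies with the mean of its probes (-0.12) and for Insr between PGC and GSC colonies without PGC colony replicate 2 (-0.003, of a range to 0.303 with an array left out); the cause was not tested. Without normalization 7573 genes were higher and 1838 lower in PGC colonies, and 8179 and 1732 in GSC colonies, against sorted cells.

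The labels number the arrays of every group alike without saying that a number marks a shared batch. Deviations of same-numbered arrays correlated at 0.312 between PGC colonies and sorted cells, -0.345 between GSC colonies and sorted cells and -0.224 between the colony groups, so the numbers were not taken as pairs. With the replicate block 6637, 6804 and 1707 genes were called in PGC colonies against sorted cells, GSC colonies against sorted cells and PGC against GSC colonies, against 7111, 7279 and 2329 without it. With the numbers of the GSC colony arrays crossed, a setting added after seeing the data, 7672, 7831 and 2703 were called. Low signal limits Igf2bp1 in sorted cells, where both arrays lay under the 30th percentile, so it entered the fit through the colony arrays alone.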
